A study of Homo sapiens with 12 samples.

Results

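The replication-dependent histone genes encode the linker histones H1 and the core histones H2A, H2B, H3 and H4 that package newly copied DNA. Members were taken as every identifier of the count table whose current symbol is H1-1 to H1-6, or H2AC, H2BC, H3C or H4C followed by a number, and pseudogenes were left out. This gave 36 of the 63568 identifiers: 6 of H1, 8 of H2A, 11 of H2B, 5 of H3 and 6 of H4. A further 29 genes with matching symbols in the reference annotation have identifiers outside the count table and were not analysed here. Of the 36 members, 26 passed the filter on low counts and were tested, 21 had a mean of at least 1 CPM (counts scaled to library size) over the 12 samples, and 12 reached that level in every sample.

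RNA was measured in bulk in MDA-MB-231, a human triple-negative breast cancer cell line, labelled as wild type and grown as a suspension in Matrigel, a basement membrane extract. Untreated cells were taken on day 2 (C1) and day 4 (C2), and treated cells were taken on day 4 after Paclitaxel, a drug that stabilises microtubules, had been given on day 2 at 0.0005, 0.005, 0.05 or 0.5 μM. Each of the 6 groups had 2 samples, with total counts from 38380629 to 79169121 a sample. All groups shared 1 feature that touches these genes: the cells carried nuclear GFP introduced with a histone construct, and the histone used was not given in the sources used here. Reads of such a construct and of the endogenous gene cannot be told apart in a table of counts per gene. In bulk RNA, a change in the share of cells that express a gene and a change in RNA per cell cannot be told apart either. Among defining markers, VIM was at 781 to 1229 CPM, whereas ESR1 and PGR did not exceed 0.494 and 0.091 CPM. ERBB2 was at 23.2 to 47.2 CPM.

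These genes lie in clusters and have mostly short transcripts without introns. Their transcription is coupled to S phase through NPAT, and the typical mRNA ends not in a poly(A) tail but just after a conserved stem-loop that is bound by SLBP and cut with the help of the U7 particle. Some members also have polyadenylated transcripts, known from differentiated or non-dividing cells. These run past the stem-loop or, as annotated for H2BC4 and H2BC5, do not contain it. Of the members, 23 lie on chromosome 6, 11 on chromosome 1, and 1 each on chromosomes 12 (H4C16) and 21 (H2BC12L).

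The stem-loop is shown because it is known to stand in for the poly(A) tail in these transcripts. It was found in 35 of 36 members, all but H2BC12L, in 6 forms of 16 bases. The commonest form was present in 20 members, another in 7 (among them H2BC4, H2BC11 and H2BC12), another in 4 H4 genes and another in H4C14 and H4C15. H2AC11 and H2AC20 each had a form of their own. Capitals mark the arms of the stem and lower case the loop, the strand is that of the gene, and coordinates are on GRCh37.
H1-2, chr6:26055972-26055987, minus strand: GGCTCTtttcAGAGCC
H2BC4, chr6:26123700-26123715, minus strand: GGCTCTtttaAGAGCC
H4C8, chr6:26285359-26285374, minus strand: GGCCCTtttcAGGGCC
H4C14, chr1:149804596-149804611, plus strand: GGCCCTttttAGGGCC
H2AC11, chr6:27101294-27101309, plus strand: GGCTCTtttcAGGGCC
H2AC20, chr1:149858941-149858956, plus strand: GGCTCTttttAGAGCC

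Promoters are shown for H1-2, H2BC4, H2AC6, H2BC11 and H4C8. These include H4C8, with the largest difference apart from H1-6, and H2BC11, the most abundant transcript. RefSeq sequences on GRCh38.p14 were matched for 33 members, and the 250 bases before the start were searched on both strands. The octamer ATTTGCAT, the letters bound by POU2F1, was present in 39.4% of the members and in 1.6% of all 35116 promoters. It was found in 6 of 8 H2A and 6 of 10 H2B promoters, and in 0 of 6 H1 and 0 of 5 H4 promoters. The window listed for H3C4 also holds it but is that of H2AC7, so the shares of the members count this window under both genes. CCAAT was present in 84.8% of members and 32.0% of all promoters, TATAAA in 63.6% and 10.7%, and AAACACA, known from H1 promoters, in 18.2% and 4.8%. AAACACA was in 6 of 6 H1 promoters and in no other class. Each sequence below is the 150 bases before the start, in the direction of the gene, with these motifs in capitals in either orientation.
H1-2, chr6:26056471-26056620, minus strand: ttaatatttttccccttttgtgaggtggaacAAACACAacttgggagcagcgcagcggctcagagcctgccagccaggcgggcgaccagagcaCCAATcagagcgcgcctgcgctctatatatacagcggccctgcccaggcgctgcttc
H2BC4, chr6:26123927-26124076, minus strand: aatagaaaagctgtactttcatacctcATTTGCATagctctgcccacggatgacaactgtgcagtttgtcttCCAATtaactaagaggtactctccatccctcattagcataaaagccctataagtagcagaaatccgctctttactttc
H2AC6, chr6:26124022-26124171, plus strand: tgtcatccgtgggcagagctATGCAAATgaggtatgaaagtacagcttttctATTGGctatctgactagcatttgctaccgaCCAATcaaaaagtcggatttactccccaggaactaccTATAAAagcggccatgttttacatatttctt
H2BC11, chr6:27132796-27132945, minus strand: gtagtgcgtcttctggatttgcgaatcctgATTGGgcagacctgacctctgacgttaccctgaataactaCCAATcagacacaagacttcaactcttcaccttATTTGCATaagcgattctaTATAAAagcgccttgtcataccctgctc
H4C8, chr6:26285535-26285684, minus strand: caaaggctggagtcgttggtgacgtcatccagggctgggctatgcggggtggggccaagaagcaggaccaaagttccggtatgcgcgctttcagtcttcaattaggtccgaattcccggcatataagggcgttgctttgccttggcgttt
H2BC4 and H2AC6 are transcribed away from each other, and the 2 windows share 55 bases. The octamer printed for both is the same 8 bases, chr6:26124042-26124049. None of the 4 motifs was found in the printed bases of H4C8.

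Per kilobase of annotated exon and over all samples, H2BC11 was the most abundant member at 625 CPM per kb. H1-2 followed at 124 and H2BC12 at 98.2, then H2BC5 at 13.9 and H2AC6 at 12.7 CPM per kb. On this measure no other member exceeded 6.86 CPM per kb, the level of H4C11. The length counts all annotated exons of a gene, including those of longer transcripts. It was 1880 bases for H4C14, 2163 for H4C8 and 1668 for H2AC6, whereas their stem-loop transcripts have 396, 409 and 519 bases. The order of the members below H2BC12 therefore depends on the length chosen, and no other length was used here. H2BC11, which encodes an H2B protein, made up between 56.4% and 89.1% of the members' summed CPM in a sample. Reads of the histone construct, if it carries this gene, cannot be told apart from the endogenous transcript here. Its level was 638 and 383 CPM in C1 and 732 and 633 CPM in C2. In order of dose it was 898 and 751, 572 and 648.5, 750.5 and 789, and 597 and 454 CPM. Treated and untreated samples overlapped, and the log2 fold change against C2 was 0.27, -0.16, 0.17 and -0.38 from the lowest to the highest dose. None of these was called, with p from 0.352 to 0.733 in the quasi-likelihood test of edgeR after Benjamini-Hochberg adjustment.

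The levels of the other members had another course. Their summed CPM was 125 ± 25.7 (SD, n = 2) in C1, 92.2 ± 4.24 in C2, and in order of dose 199 ± 30.6, 222 ± 16.2, 382 ± 46.9 and 350.2 ± 0.156. All 8 treated sums lay above all 4 untreated sums, and the sums at the 2 higher doses lay above those at the 2 lower doses. H1-2 alone gave from 25.9% to 48.7% of this sum. The sum counts the reads of H3C14 and H3C15, and of H4C14 and H4C15, once for each gene.

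**Figure D1:**
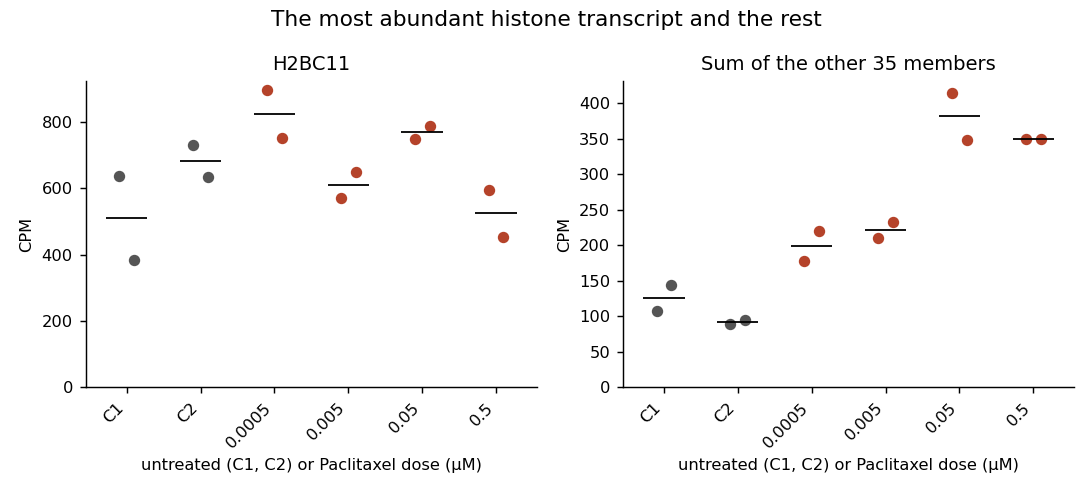
CPM of H2BC11 (left) and summed CPM of the other 35 members (right) for each of the 12 samples, with points for samples, bars for means, and grey for untreated and red for treated samples. H2BC11 overlaps between untreated and treated samples, whereas the sum of the other members rises from a mean of 92.2 in C2 to 382 at 0.05 μM.

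Transcripts of most measured members were higher in samples treated with Paclitaxel, and no member was called lower at any dose. Against C2, 7 of 26 members were called higher at 0.0005 μM, with 11 at 0.005 μM, then 18 at 0.05 μM, and 17 at the highest dose (edgeR adjusted p under 0.05, all genes adjusted together). Over all 25249 tested genes, the share called higher was 1.87%, 2.5%, 5.09% and 4.36% at these doses, and the share called lower was 0.479%, 0.776%, 3.23% and 1.96%. The median log2 fold change of the members was 0.74, 0.95, 1.53 and 1.61, and that of all tested genes lay between -0.01 and 0.04. The 4 comparisons share the C2 samples, so they are not independent of each other. In a comparison of all 8 treated with all 4 untreated samples, 18 of 26 members were called higher and 0 lower, with 13.1% of all genes called higher and 11.3% lower. For 14 of 26 members every treated sample lay above every untreated sample, which held for 7.39% of all genes. These 14, the 18 before them and the counts at the 2 higher doses include H1-6, which passed the filter only through treated samples. When C2 replicate 1 was left out, the counts at the 4 doses were 5, 5, 12 and 11. The count at 0.0005 μM was 14 or 15 without C1 replicate 1 or 2, and that at 0.005 μM was 6 without replicate 2 of that dose.

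**Figure D2:**
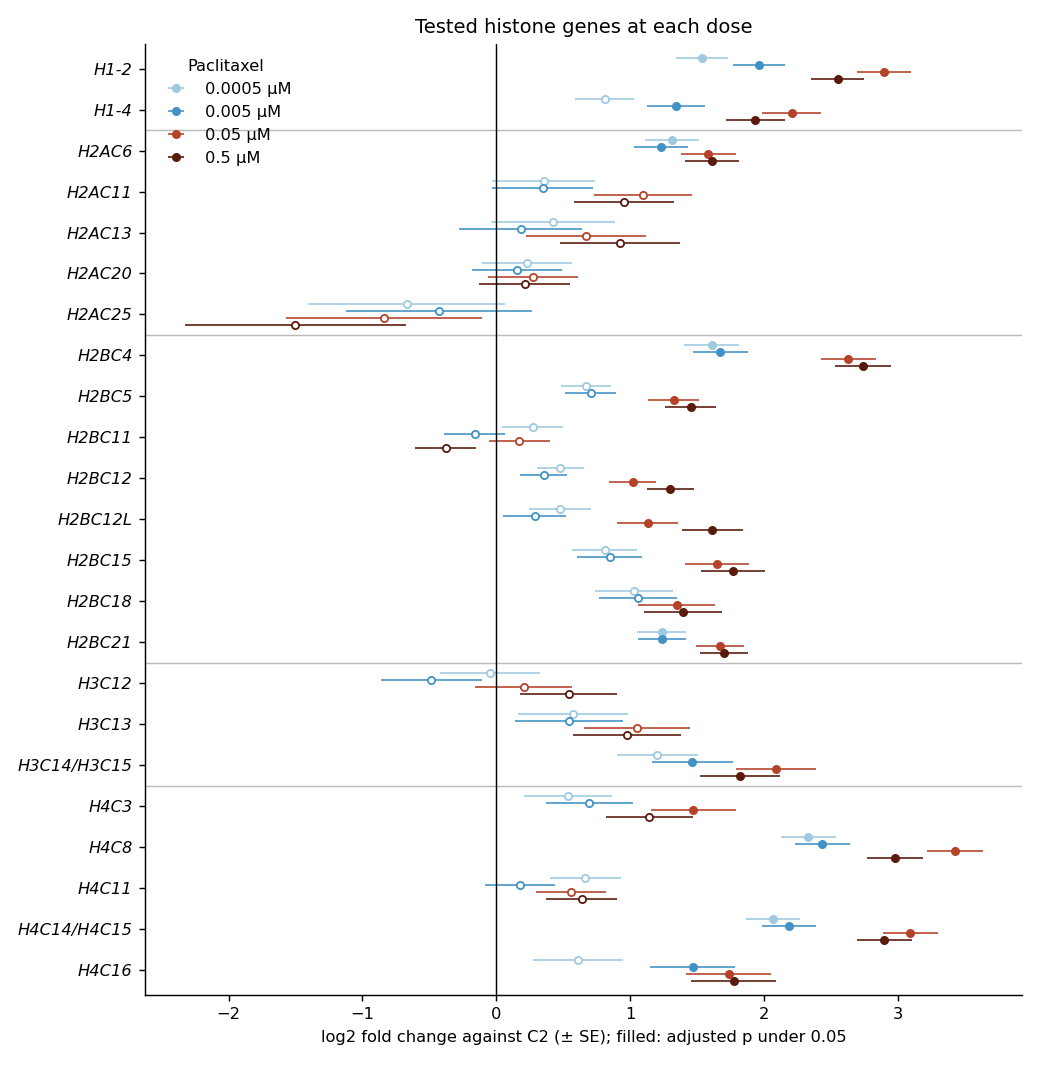
Log2 fold change against C2 (horizontal axis, ± SE) of the tested members at each Paclitaxel dose, with filled symbols for an adjusted p under 0.05 and grey lines between the histone classes. The pairs H3C14/H3C15 and H4C14/H4C15 are drawn once, and H1-6 is left out because its C2 samples held 1 and 0 counts. Filled points lie to the right of 0 at every dose, and H4C8 reaches 3.43 at 0.05 μM.

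The calls were also counted by class, beside 4.36% of all genes called higher at 0.5 μM and 5.09% at 0.05 μM. At 0.5 μM, 3 of 3 tested H1, 1 of 5 H2A, 7 of 8 H2B, 2 of 4 H3 and 4 of 6 H4 genes were called higher. The H1 count includes H1-6, which the filter on low counts kept only through its treated samples. At 0.05 μM the numbers were the same but for H4, with 5 of 6. On chromosome 1, 6 of 9 tested members were higher at 0.5 μM, and on chromosome 6, 9 of 15 were. Here and in the other counts the pairs H3C14 and H3C15, and H4C14 and H4C15, count as 2 genes a pair. Counted once, 1 of 3 H3 and 3 of 5 H4 genes were called at 0.5 μM, and 6, 9, 16 and 15 of 24 members in order of dose. No test was made of the difference between classes or chromosomes.

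Among genes of H4, the core histone that pairs with H3, H4C8 showed the largest difference, leaving aside H1-6 with its few counts. H4C8 was at 1.46 and 2.12 CPM in C1, 1.39 and 1.23 in C2, 6.02 and 7.23 at 0.0005 μM, 6.49 and 7.76 at 0.005 μM, 14.3 and 13.9 at 0.05 μM, and 10.2 and 10.5 at 0.5 μM. Every treated sample was above every untreated sample, and both samples at 0.05 μM were above all others. The log2 fold change against C2 was 2.33 ± 0.20 (SE), 2.44 ± 0.20, 3.43 ± 0.21 and 2.98 ± 0.21 in order of dose, with edgeR adjusted p of 9.75e-05, 7.47e-05, 6.07e-06 and 2.26e-05. An unnamed gene on the opposite strand shares 287 exon bases with H4C8, and whether strand was used in counting is not given in the sources used here.

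H4C14 and H4C15 are 100% identical over 396 bases of their stem-loop transcripts, and their counts differed by at most 6 in any sample. They are therefore 1 measurement. H4C14 was at 2.21 and 3.19 CPM in C1, 1.70 and 2.34 in C2, 8.39 and 8.50 at 0.0005 μM, 9.07 and 9.27 at 0.005 μM, 18.1 and 16.4 at 0.05 μM, and 15.7 and 14.4 at 0.5 μM. Treated and untreated samples did not overlap, and the 2 higher doses lay above the 2 lower ones. Against C2, the log2 fold change was 2.07 ± 0.20, 2.19 ± 0.20, 3.09 ± 0.21 and 2.90 ± 0.21, with edgeR adjusted p from 1.12e-05 to 0.000215. H4C16, on chromosome 12, was at 0.309 to 0.570 CPM in the untreated samples and 0.646 to 2.02 CPM in the treated samples. It was called at the 3 higher doses, by 1.77 ± 0.32 on the log2 scale at 0.5 μM, and at that dose the adjusted p was 0.131 without C2 replicate 1 and 0.0981 without 0.5 μM replicate 2 (edgeR).

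The remaining H4 genes moved less. H4C3 was at 0.927 and 1.76 CPM in C1, 0.900 and 0.993 in C2, 2.99 and 2.27 at 0.05 μM, and 1.61 and 2.59 at 0.5 μM. It was called against C2 at 0.05 μM alone (1.47 ± 0.32, edgeR adjusted p = 0.0166). In treated against untreated samples its value was 0.77 ± 0.26 (adjusted p = 0.0373), and this call was lost without C1 replicate 1, either C2 sample, either 0.05 μM sample or 0.5 μM replicate 2, with values from 0.64 to 0.71. H4C11 had 1.72 to 4.21 CPM in untreated and 1.94 to 3.24 CPM in treated samples, which overlapped. Its log2 fold changes of 0.18 to 0.67 against C2 were not called.

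The linker histones bind the DNA between nucleosomes, and H1-2 is one of the H1 genes that dividing cells commonly use. H1-2 was at 34.3 and 45.6 CPM in C1, 23.2 and 24.7 in C2, 60.7 and 78.5 at 0.0005 μM, 86.1 and 100.3 at 0.005 μM, 202 and 154 at 0.05 μM, and 147 and 134 at 0.5 μM. The groups on day 4 did not overlap with each other, and every treated sample was above every untreated one. The log2 fold change against C2 was 1.54 ± 0.19, 1.96 ± 0.20, 2.89 ± 0.20 and 2.55 ± 0.20, with edgeR adjusted p of 0.00118, 0.000351, 1.58e-05 and 4.77e-05.

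H1-4 followed a similar order at a lower level. It was at 2.23 and 2.60 CPM in C1, 1.64 and 1.67 in C2, 2.46 and 3.37 at 0.0005 μM, 3.65 and 4.77 at 0.005 μM, 7.77 and 7.53 at 0.05 μM, and 5.57 and 7.12 at 0.5 μM. The lowest dose overlapped with C1 but not with C2. H1-4 was called from 0.005 μM upwards, at 1.34 ± 0.22, 2.21 ± 0.22 and 1.94 ± 0.22, with edgeR adjusted p of 0.00735, 0.000181 and 0.000753.

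H1-6, the testis-specific linker histone, was almost absent. It had 2 and 1 counts in C1, 1 and 0 in C2, 3 and 3 at 0.0005 μM, 8 and 8 at 0.005 μM, 13 and 14 at 0.05 μM, and 10 and 12 at 0.5 μM. It was called at the 2 higher doses (edgeR adjusted p of 0.0122 and 0.0173), and no fold is given on so few counts. H1-6 passed the filter on low counts only through treated samples, so these calls are not independent of the filter. At 0.5 μM the adjusted p was 0.0906 and 0.0862 without C2 replicate 1 or 2, and 0.0508 and 0.127 without 0.5 μM replicate 1 or 2. H1-1, H1-3 and H1-5 had 7, 1 and 3 counts over all 12 samples and were not tested.

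**Figure D3:**
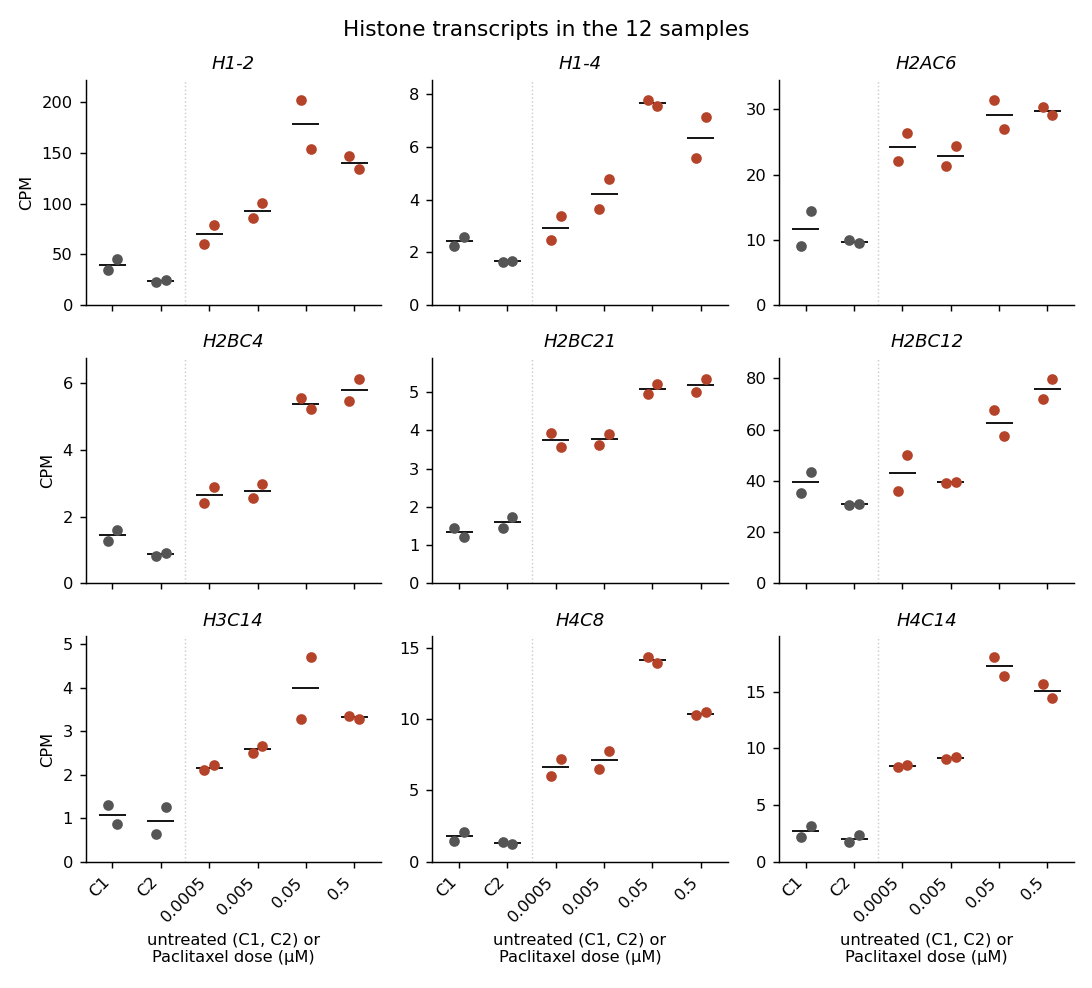
CPM (vertical axis from 0, own scale in each panel) of 9 members in the 12 samples, with points for samples, bars for means, grey for untreated C1 and C2 and red for the 4 Paclitaxel doses in μM. H4C8, H4C14, H1-2, H2AC6, H2BC4, H2BC21 and H3C14 have all treated samples above all untreated samples, whereas H2BC12 overlaps with C1 at both lower doses and H1-4 at 0.0005 μM.

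H2A and H2B form the dimers that flank the H3 and H4 tetramer in the nucleosome. H2BC4 was at 1.28 and 1.61 CPM in C1, 0.835 and 0.901 in C2, 2.42 and 2.89 at 0.0005 μM, 2.55 and 3.00 at 0.005 μM, 5.55 and 5.22 at 0.05 μM, and 5.48 and 6.14 at 0.5 μM. The 2 lower doses overlapped with each other, as did the 2 higher ones, with a gap between the pairs of doses and another to the untreated samples. The log2 fold change against C2 was 1.61 ± 0.21, 1.67 ± 0.21, 2.63 ± 0.21 and 2.74 ± 0.21, with edgeR adjusted p from 3.4e-05 to 0.00145. H2BC4 shares 430 exon bases with HFE on the opposite strand.

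H2AC6, the divergent neighbour of H2BC4, showed a flatter course. It was at 9.05 and 14.4 CPM in C1, 10.04 and 9.44 in C2, 22.1 and 26.4 at 0.0005 μM, 21.3 and 24.3 at 0.005 μM, 31.4 and 27.0 at 0.05 μM, and 30.4 and 29.2 at 0.5 μM. Treated samples were all above untreated samples, and the 2 lower doses overlapped with each other but not with the higher ones. On the log2 scale the change was 1.32 ± 0.20, 1.23 ± 0.20, 1.58 ± 0.20 and 1.61 ± 0.20, with edgeR adjusted p from 0.00109 to 0.0075. H2AC6 was the only H2A gene called in any comparison.

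H2BC21 was similar to H2AC6 in shape, at 1.22 to 1.73 CPM in untreated samples, 3.55 to 3.93 CPM at the 2 lower doses and 4.94 to 5.35 CPM at the 2 higher doses. Its log2 fold change was 1.24 ± 0.18 at both lower doses, 1.67 ± 0.18 at 0.05 μM and 1.70 ± 0.18 at 0.5 μM, with edgeR adjusted p from 0.000298 to 0.00336. Its counts were within 1 of those of an unnamed identifier in every sample, and those of H2AC20 and H3C13 equalled those of such identifiers. The members called at all 4 doses were H1-2, H2AC6, H2BC4, H2BC21, H4C8, H4C14 and H4C15.

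Other H2B genes were called at the 2 higher doses and at neither lower dose. H2BC12, the second most abundant H2B gene, was at 35.3 and 43.7 CPM in C1, 30.8 and 31.0 in C2, 36.0 and 50.0 at 0.0005 μM, 39.3 and 39.7 at 0.005 μM, 67.8 and 57.5 at 0.05 μM, and 72.1 and 79.96 at 0.5 μM. The lower doses overlapped with C1, and the higher doses lay above all other samples. The log2 fold change was 1.02 ± 0.18 at 0.05 μM and 1.30 ± 0.18 at 0.5 μM, with edgeR adjusted p of 0.00556 and 0.00229. In treated against untreated samples the value was 0.65 ± 0.20 (edgeR adjusted p = 0.0251), and this call was lost without C1 replicate 1, either C2 sample or 0.5 μM replicate 1, with values of 0.56 to 0.65.

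H2BC5, H2BC12L, H2BC15 and H2BC18 were also called at 0.05 and 0.5 μM only. At 0.5 μM their log2 fold changes were 1.45 ± 0.19, 1.62 ± 0.23, 1.77 ± 0.24 and 1.40 ± 0.29. H2BC5, at 4.85 to 7.21 CPM in untreated and 9.93 to 20.4 CPM in treated samples, H2BC15 and H2BC18 had every treated sample above every untreated sample. H2BC12L, the gene without the stem-loop letters, is 97.9% identical to H2BC12 over 467 bases, so the assignment of reads between them is uncertain. Its call at 0.5 μM was lost without C2 replicate 1 (1.48, edgeR adjusted p = 0.0577). That of H2BC18, which shares 177 exon bases with FCGR1A on the opposite strand, was lost without any 1 of the C2 or 0.5 μM samples, with values from 1.25 to 1.54.

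Genes of H3, the core histone that carries many of the known tail modifications, were few in the table. H3C14 and H3C15 are 100% identical over 518 bases, their counts differed by at most 2, and they are 1 measurement. H3C14 was at 1.31 and 0.865 CPM in C1, 0.638 and 1.25 in C2, 2.10 and 2.23 at 0.0005 μM, 2.51 and 2.67 at 0.005 μM, 3.29 and 4.71 at 0.05 μM, and 3.35 and 3.29 at 0.5 μM. The untreated groups overlapped with each other and lay below all treated samples. The log2 fold change against C2 was 1.47 ± 0.30, 2.09 ± 0.30 and 1.82 ± 0.30 at the 3 higher doses, with edgeR adjusted p of 0.0223, 0.00211 and 0.00593, and 1.2 ± 0.30 at the lowest dose (adjusted p = 0.0613). At 0.5 μM it was 1.40 with an adjusted p of 0.079 (edgeR) without C2 replicate 1. H3C13, with 12 counts in its lowest sample, was called in treated against untreated samples only (0.86 ± 0.26, edgeR adjusted p = 0.0247). That call was lost without C1 replicate 1 (0.72) or C2 replicate 1 (0.65). H3C12 was at 0.189 to 0.626 CPM, overlapped between treated and untreated samples and was not called.

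H2AC11, H2AC13, H2AC20 and H2AC25 were not called in any comparison. H2AC20 was at 0.753 to 2.62 CPM in untreated and 1.03 to 1.25 CPM in treated samples, with log2 fold changes of 0.15 to 0.28 against C2. H2AC11 had values of 0.35, 0.35, 1.1 and 0.95 and H2AC13 of 0.42, 0.18, 0.67 and 0.92. H2AC25 was the only member with values below 0 at every dose, from -1.5 to -0.43, on 72 counts over all samples. These 4, H2BC11, H3C12, H3C13 and H4C11 were the 8 tested members called at no dose.

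In all, 10 members were not tested. H2AC1, H2AC7 and H2BC26 had 0 counts in every sample. The highest of the other 7 was H2AC21, with 60 counts over the 12 samples and a mean of 0.0746 CPM. H2BC13 had 20 counts, H3C4 had 5 and H2BC1 had 1. At this depth no statement is made on these genes.

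The dose comparisons ask whether the level followed the amount of Paclitaxel. Across the 8 treated samples, 8 of 25 tested members had a slope on log10 dose that was called above 0 and 0 had one called below 0, against 1.04% and 2.11% of all tested genes. Whether called or not, 24 slopes were above 0 and 1, that of H2BC11 (-0.16), below. The 8 called were H1-4 (0.43 log2 units for a 10-fold dose), H2BC4 (0.44), H2BC5 (0.30), H2BC12 (0.31), H2BC12L (0.43), H2BC15 (0.37) and the pair H4C14 and H4C15 (0.35 each). H1-2 had a slope of 0.41 ± 0.10 that was not called (edgeR adjusted p = 0.0543). The count was 2 without 0.0005 μM replicate 1, and 5 without 0.0005 μM replicate 2 or 0.5 μM replicate 2.

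Neighbouring doses were then compared. The highest group mean was at 0.05 μM for 10 tested members, at 0.5 μM for 11 and elsewhere for 5. In comparisons of neighbouring doses, added after the values were seen, edgeR called 0 members and 0 of 25249 genes at each of the 3 steps. At an unadjusted p under 0.05 there were 3 members between 0.0005 and 0.005 μM, 14 between 0.005 and 0.05 μM and 3 between 0.05 and 0.5 μM, beside 10.4%, 6.21% and 2.57% of all genes. DESeq2 called 0, 5 and 0 members, beside 0%, 0.119% and 0.0158% of all genes. The 5 DESeq2 calls were all higher at 0.05 μM. Between the lowest and the highest dose, 3 members were called higher at 0.5 μM and 0 were called lower, beside 0.0753% and 0.337% of all genes. These were H1-2 (1.01), H2BC4 (1.13) and H1-4 (1.13 on the log2 scale), and the count was 0 to 12 when single samples were left out. With no filter, with the 4 samples alone or without either C1 sample, 1 member was also called lower.

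The comparison of C2 with C1 gives the course without drug over the same 2 days. edgeR called 0 of 26 members, with 0.325% of all genes called in either direction. At an unadjusted p under 0.05 there were 6 members, beside 10% of all genes, and DESeq2 called 1, which was lower in C2, beside 1.09% of all genes. The median log2 fold change was -0.40, with 20 values below 0 and 6 above, beside a median of -0.02 for all tested genes. Both C2 samples lay below both C1 samples for 13 of 26 members and for 15.3% of all genes. The 6 members at an unadjusted p under 0.05 were all lower in C2. Their values were -0.74 ± 0.19 for H1-2, -0.71 ± 0.22 for H2BC4 and -0.80 ± 0.27 for H4C11. Those of H2AC20, H2BC12L and H1-4 were -0.94 ± 0.34, -0.61 ± 0.24 and -0.53 ± 0.23. Without C1 replicate 1 some members were called, most of them lower in C2. That fit leaves 1 C1 sample, and its share of all genes called is not given here. The 2 C1 samples stood apart from each other, as the H2BC11 levels above show.

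Genes that work with histone transcripts and proteins were taken from lists compiled by hand. Of 25 genes of histone transcription and 3′ end processing, 3 were called higher and 8 lower in treated than in untreated samples, beside 13.1% and 11.3% of all genes. The untreated samples here include day 2. Against C2, 1 gene was called higher at each dose and 0, 1, 2 and 1 were called lower in order of dose. Beside these stand 1.87%, 2.5%, 5.09% and 4.36% of all genes called higher and 0.479%, 0.776%, 3.23% and 1.96% called lower. In C2 against C1, 21 of 25 values were below 0. ZNF473, a zinc finger protein of the U7 particle, was called higher at every dose, by 0.92, 0.64, 0.81 and 0.89 on the log2 scale. HINFP, an activator of H4 genes, and TUT7, a uridylyl transferase of histone mRNA decay, were higher by 0.39 and 0.33 in treated than in untreated samples. Neither was called against C2 at any dose. Without drug, the mean of HINFP was 13.3 CPM in C1 and 16.3 CPM in C2, and that of TUT7 38.4 and 39.9 CPM. Among the 8 lower genes, CDK2, the kinase that acts on NPAT, had a value of -0.69 and was called lower against C2 at the 3 higher doses. SLBP, the stem-loop binding protein, had a value of -0.36, but -0.42 in C2 against C1 and -0.29 to -0.06 at the doses against C2, none of them called. NPAT had a value of -0.11 and was not called.

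The replication-independent histones, most of which are also made outside S phase from polyadenylated transcripts, were listed with 11 genes. H2AX is known to have a stem-loop transcript as well. Of these, 0 were called higher and 3 lower in treated samples, beside 13.1% and 11.3% of all genes: H2AX (-0.84), H2AZ2 (-0.58) and MACROH2A1 (-0.29). H1-10 had a value of 0.20, H2AJ of 0.05, H2AZ1 of -0.45, H3-3A of -0.38 and H3-3B of -0.13, and these were not called. Against C2, 0 of the 11 were called lower at any dose, beside 0.479%, 0.776%, 3.23% and 1.96% of all genes in order of dose. In C2 against C1, 10 of 11 values were below 0, with -0.47 for H2AX. CENPA, the centromeric H3, was called higher at 0.5 μM (0.61), beside 4.36% of all genes.

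S phase genes mark cells that copy their DNA, and chaperones carry newly made histones to it. All 24 S phase genes of the list were called lower in treated than in untreated samples, with a median log2 fold change of -0.93, beside 11.3% of all genes called lower. The untreated samples of that comparison include day 2, and without drug all 24 had values below 0 in C2 against C1, with a median of -0.51 and 20 at an unadjusted p under 0.05 in edgeR. Against C2, 3, 13, 16 and 9 of them were called lower in order of dose and 0 higher, with medians of -0.53, -0.74, -0.70 and -0.59, beside 0.479%, 0.776%, 3.23% and 1.96% of all genes called lower. CDC45, CLSPN and FEN1, which act at the replication fork, were the 3 genes called at every dose, with values of -1.12, -1.08 and -1.06 in treated against untreated samples. Of 22 chaperones and carriers, 12 were called lower and 0 higher, among them CHAF1A (-1.21) and CHAF1B (-1.14) of the assembly factor CAF-1, ASF1B (-1.02) and NASP (-0.74). Against C2, 0, 4, 6 and 3 of the 22 were called lower in order of dose, beside the same shares of all genes. At 0.5 μM 1 was called higher, HJURP (0.75), the carrier of CENPA, beside 4.36% of all genes. Without drug, 20 of the 22 had values below 0 in C2 against C1. The part of these genes' course in the histone values was not tested.

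**Figure D4:**
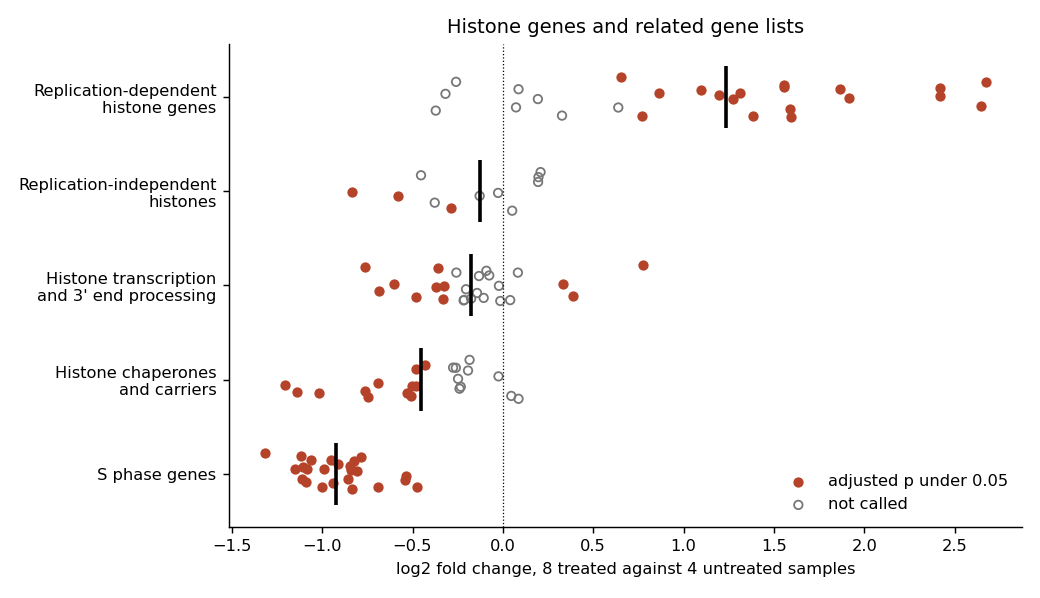
Log2 fold change of the 8 treated against the 4 untreated samples (horizontal axis) for each tested gene of 5 groups, with filled red points for an adjusted p under 0.05, open points for genes not called and bars for group medians. The replication-dependent histone genes have a median of 1.23 with 18 of 26 called higher, whereas the 24 S phase genes have a median of -0.93 and are all called lower.

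Whether the libraries were made by poly(A) selection or by removal of ribosomal RNA is not given in the sources used here, and this bears on which histone transcripts were counted. Of 15 listed RNAs without a poly(A) tail, 9 were matched and 7 tested, of which 4 were called higher and 1 lower in treated samples, beside 13.1% and 11.3% of all genes. RNU5A-1, a spliceosomal RNA, was higher at every dose (1.47, 1.21, 1.70 and 1.50), and SNORD3A, the U3 RNA, at the 3 higher doses (1.06, 0.96 and 1.07). RN7SK, RN7SL2 and TERC had values of 1.04, 0.58 and -0.76 in treated against untreated samples. The medians of the 7 against C2 were 0.91, 0.88, 0.73 and 0.68 from the lowest to the highest dose, whereas those of the histone members were 0.74, 0.95, 1.53 and 1.61. The part of recovery of RNAs without a tail in the histone values was not tested.

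Members were also compared by their annotated transcript ends. Of the 36 members, 14 have an annotated transcript with a poly(A) signal near its end, and 12 of these were tested. At 0.5 μM, 9 of these 12 and 8 of the 14 tested members without such a transcript were called higher, with medians of 1.66 and 1.46, beside 4.36% of all genes. At 0.0005 μM the counts were 6 of 12 and 1 of 14, with medians of 1.13 and 0.55, beside 1.87% of all genes. The 1 of 14 was H1-2, which with H2BC12 counts as without such a transcript in this annotation, and the signal of H4C11 lies in its stem-loop transcript. The 6 members that are known to have polyadenylated transcripts, H1-2, H2AC6, H2BC4, H2BC5, H2BC12 and H2BC21, were all called higher at 0.05 and 0.5 μM (5.09% and 4.36% of all genes) and, as a group, had a median of 1.66 at 0.5 μM. Counts per gene cannot tell the stem-loop form of a transcript from the polyadenylated one.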

How the data were processed

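RNA was sequenced as paired-end reads from 12 samples in 6 groups of 2, which the study calls biological replicates. The study's methods state more samples, and another day of treatment for imaged cultures, and the labels were followed here. The deposited values are integer counts per gene, neither normalized nor pooled. The authors made them by trimming with Trimmomatic 0.39, checking with FastQC 0.11.9, aligning to GRCh37 with STAR 2.7.5 and counting reads in exons. The methods state that only uniquely aligned reads were kept. H3C14 and H3C15, identical over 518 bases, nonetheless held 1944 and 1942 counts over the 12 samples, and reads within identical stretches cannot align uniquely. The 12 single files were identical to the table of the series.

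Tests used edgeR 4.0.16 and limma 3.58.1 under R 4.3.3, with TMM scaling, filterByExpr (minimum count 10) and a robust quasi-likelihood fit, two-sided, adjusted by Benjamini-Hochberg over all tested genes, and called at an adjusted p under 0.05. Comparisons with C2 and C1 came from 1 model of the 6 groups (residual df 6, biological coefficient of variation 15.6%). The slope was fitted on the 8 treated samples and treated against untreated in a fit of its own. The SE was taken from the log2 fold change and the root of the F statistic, and CPM uses TMM library sizes. The steps were tested on simulated data.

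Stem-loops and exon lengths came from GENCODE 44 on GRCh37 and promoters from RefSeq on GRCh38.p14. Members and lists were chosen with earlier results of these data known. Eligible to be named were members with a mean of at least 1 CPM or a call in any comparison, untested members by count, and list genes with a call plus SLBP, NPAT, H1-10, H2AX, H2AZ1, H2AJ, H3-3A and H3-3B (1 gene of this rule is not reported here). From the called list genes the text gives examples, chosen with their values in view. The less abundant tested members, and the genes that share exon bases with members, were named after their values were seen. Alternatives were DESeq2 1.42.0, RLE scaling, no filter beyond 1 count, a replicate block, offsets for length and GC content, the 4 samples of a comparison alone, a contrast of group means and leaving out each sample. The SE reflects the spread between samples as estimated by the model, and the SD that of the 2 samples of a group.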

Additional observations from a re-analysis of the deposited data

Results flagged for a closer look

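For 3 members the response at 0.5 μM differed from that at 0.0005 μM in the test of the difference itself, a comparison added after the values were seen. The log2 difference was 1.01 ± 0.19 (SE) for H1-2, 1.13 ± 0.19 for H2BC4 and 1.13 ± 0.21 for H1-4, with edgeR adjusted p of 0.0456, 0.0218 and 0.044. Both samples at 0.5 μM lay above both samples at 0.0005 μM for each of the 3 genes. Over all genes, 0.0753% were called higher and 0.337% lower in this fit, and the shares under the alternatives below are not given here. The count of members fell to 0 without either 0.0005 μM sample, either 0.005 μM sample or either 0.5 μM sample, fell to 1 without either C2 sample or 0.05 μM replicate 1, and rose to 12 without either C1 sample, while DESeq2 called 10.

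Among 11 histone pseudogenes left out of the comparisons, H2BC19P had a signal above that of the untreated samples. Its mean was 1.94 CPM over the 8 treated samples, which ranged from 1.31 to 2.92 CPM, and the untreated samples ranged from 0.567 to 1.05 CPM. Every treated sample was above every untreated sample. No other pseudogene exceeded a mean of 0.148 CPM.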

How the results depend on the processing

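Members called at a dose against C2, for the slope or in treated against untreated samples were higher under every alternative run. At 0.0005 μM, 12 members were called by DESeq2, 12 with no filter on low counts and 15 from the 4 samples alone, in place of 7. For C2 against C1, DESeq2 and no filter gave 1 each in place of 0, and for the slope 14 and 13 in place of 8. Leaving out each sample in turn gave 5 to 15 members at 0.0005 μM, 5 to 14 at 0.005 μM, 12 to 19 at 0.05 μM, 11 to 20 at 0.5 μM, 0 to 7 for C2 against C1, 2 to 10 for the slope and 15 to 19 for treated against untreated. Replicate numbers did not pair the samples (correlation of deviations from -0.578 to 0.574 over 15743 genes), and with the replicate block the counts were 7, 12, 18, 18, 0, 8 and 18. Among comparisons of doses, those of 0.05 with 0.005 μM gave 0 to 8 members and those of 0.5 with 0.0005 μM gave 0 to 12 when samples were left out, the highest without C1 replicate 2 (12 also without C1 replicate 1). With the 4 samples alone these counts were 8 and 12, and 3 members were called between 0.0005 and 0.005 μM. For genes called at 0.5 μM or in treated against untreated samples, 602 of 629 alternative values kept the call, 27 lost it and 0 turned direction. The H1-6 call at 0.5 μM was lost with DESeq2 and that of H2BC12 in treated samples with no filter. With 2 samples a group, 1 library could decide a call, and the lone sample was then assumed to vary like the other groups. Members with under 10 counts in a sample are limited by depth.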
